A study of Mus musculus with 4 samples.

Results

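Strong H3K4me3 regions that were present in every library but became narrower in macrophages lacking Wbp7 are described here. The peaks of the 4 deposited lists were joined wherever they overlapped by 1 bp or more, which gave 18786 regions. Of these, 12294 held a peak in all 4 lists, and 9850 of those also reached a peak score of 3100 in at least 1 list and are called strong shared regions. For each region the peak widths of a list were summed, and the log2 ratio of the Wbp7-/- width over the Wbp7+/- width was taken in untreated cells and in LPS-treated cells. The narrower regions are the 295 of 9850 whose mean of the 2 ratios was -0.5 or lower, which leaves at most 70.7% of the width. That is 2.99% of the strong shared regions, against 205 (2.08%) at 0.5 or above. These ratios chose the regions, so they are given below as a description and support nothing.

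The cells were primary bone marrow-derived macrophages at day 7 of differentiation, from mice of a mixed background of C57BL/6 (94%) and 129/Ola (6%). Chromatin was precipitated with an antibody to histone H3 trimethylated on lysine 4 in 4 groups of 1 library each: Wbp7+/- untreated, Wbp7+/- with LPS, Wbp7-/- untreated and Wbp7-/- with LPS. LPS was given at 10 ug/ml for 4 h according to the sample labels, but the first line of the Wbp7+/- LPS file names 24 h, so the time of that library is uncertain. No wild-type cells were analysed here, and the controls had lost 1 copy of the gene themselves. The labels used here do not say how the allele was removed or how many mice gave each library, and the identity of the cells and the deletion were not checked, because the lists carry no gene names. Groups of a single library allow no test, so each difference below lacks a replicate check.

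Trimethylation of lysine 4 on histone H3 (H3K4me3) marks the nucleosomes around the start sites of active and poised genes, and the width of the marked stretch differs between genes. Several enzyme complexes of the SET1 and MLL families write it, and each contains a different catalytic subunit. Wbp7, now usually called Kmt2b, is one of these subunits, so a promoter may carry the mark from more than one enzyme. LPS, a component of the outer membrane of many bacteria, is sensed by macrophages through a receptor complex and switches on inflammatory genes.

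The lists held 14599 to 17316 peaks covering 33.47 to 34.93 Mb of the mm9 genome. Numbers of reads are unknown. Scores are the authors' values. They pile up at exactly 3100, and the highest in each list is 3233.06, so peaks at 3100 or above were taken as 1 class, called the ceiling here. Scores depend on depth, and were used to class peaks within a list. A score that is lower in one list than in another is therefore no measure of a change. Genes and sequences at the regions are not given, because no annotation or genome of mm9 was used. Shares carry a 95% Wilson interval in brackets, which reflects counting error over regions alone.

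The narrower regions were ordinary in width where 1 copy of Wbp7 was present. In Wbp7+/- cells their median width was 2273 bp without LPS and 2522 bp with it, against 2481 and 2437 bp over all strong shared regions. In Wbp7-/- cells the medians were 1277 bp untreated and 1389 bp with LPS, against 2610 and 2581.5 bp over all strong shared regions. In Wbp7+/- cells widths ran from 943 to 10169 bp without LPS and from 995 to 10208 bp with it. The Wbp7-/- widths ran from 387 to 6306 bp and from 316 to 8395 bp. Regions with less than 1 kb of peak numbered 1 in each Wbp7+/- list, 84 in untreated and 77 in LPS-treated Wbp7-/- cells. Over all 9850 strong shared regions these numbers were 39 and 52 in Wbp7+/- and 128 and 127 in Wbp7-/- cells. A width of 5 kb or more was found in 19 and 33 regions of Wbp7+/- cells, against 2 and 11 of Wbp7-/- cells. Of all 9850, 671 and 770 were that wide in Wbp7+/- and 650 and 768 in Wbp7-/- cells. Summed over the 295 regions, peaks covered 779.1 kb (mean 2641 bp) untreated and 874.4 kb (mean 2963.9 bp) with LPS in Wbp7+/- cells. The sums were 447.5 kb (mean 1516.9 bp) and 538.5 kb (mean 1825.6 bp) in Wbp7-/- cells. Over all strong shared regions the sums were 27859.1 and 27862.1 kb in Wbp7+/- and 28472.3 and 28673.5 kb in Wbp7-/- cells.

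**Figure D1:**
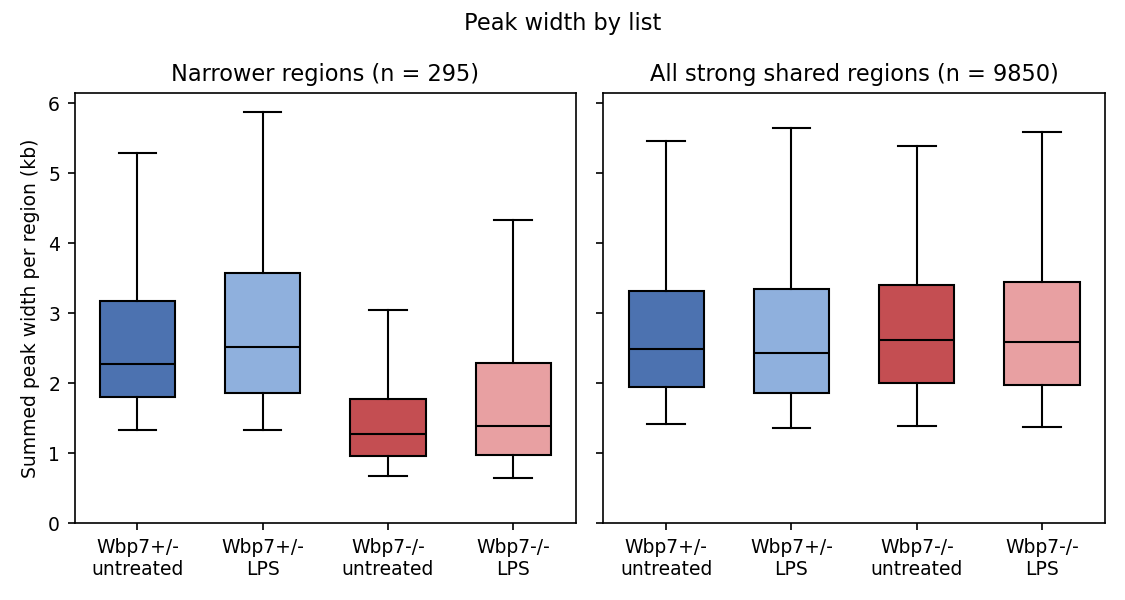
Summed peak width per region in kb (linear axis from 0) in each of the 4 lists, for the 295 narrower regions (left) and all 9850 strong shared regions (right). Boxes span the 25th to 75th percentile with the median as a line, and whiskers the 5th to 95th. The 2 Wbp7-/- boxes lie lower on the left, which the choice of regions sets, while the 4 boxes on the right are at similar heights.

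The loss was seen in both treatments for most of the regions, as a cut on the mean of the 2 ratios makes likely. The untreated ratio had a median of -0.74 on the log2 scale and the LPS ratio a median of -0.70. The mean of both had a median of -0.71, or 0.61 times the Wbp7+/- width, with 61 regions at -1 or lower. Of the 295, 251 were at -0.5 or lower untreated, where 345 (3.5%) of all strong shared regions were, and 237 after LPS, where 343 (3.48%) were. Both ratios were at -0.5 or lower in 193 of the 295 (1.96% of all strong shared regions). Leaving out the Wbp7+/- LPS list, of uncertain time, and setting both Wbp7-/- lists against untreated Wbp7+/- cells gave 233 narrower regions (2.38% of 9806), of which 199 overlapped the 295. In 32 regions less than 50% of the width was left in both treatments. The LPS ratio lay above 0 in 2 regions, with a highest value of 0.01, and the untreated ratio in none. Over all 9850 strong shared regions, which the cut did not select, the untreated and LPS ratios correlated with a Pearson r of 0.633 and a Spearman rho of 0.52. The 295 are part of those 9850. The 2 ratios share no library, but all points of a ratio come from the same pair of lists. The median ratio over all strong shared regions was 0.06, so the typical region was slightly wider in the Wbp7-/- lists.

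**Figure D2:**
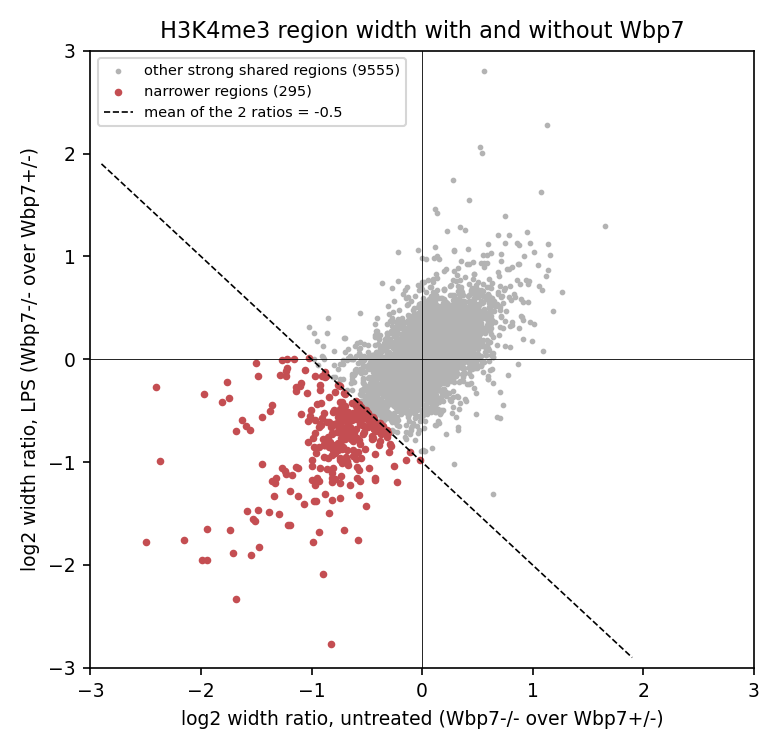
Log2 ratio of summed peak width, Wbp7-/- over Wbp7+/-, in untreated cells (horizontal) and with LPS (vertical), 1 point per strong shared region. Narrower regions (295, red) lie below the dashed line at a mean of -0.5, and the other 9555 (grey) gather near 0 on both axes.

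Narrower regions occurred at all starting widths from 1000 bp upward. The Wbp7+/- widths are also the denominators of the ratios that chose the regions, so these shares are a description. They made up 33 of 706 regions (4.67%, 3.35 to 6.49) with a mean Wbp7+/- width from 1000 to below 1500 bp, and 56 of 2135 (2.62%, 2.03 to 3.39) from 1500 to below 2000 bp. The shares were 2.84% (107 of 3771) from 2000 to below 3000 bp and 3.04% (76 of 2500) from 3000 to below 5000 bp. At 5000 bp or more, 23 of 707 were narrower (3.25%, 2.18 to 4.83). None of 31 regions under 1000 bp was (0%, 0 to 11.0).

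The 15 regions with the lowest mean ratio kept 14.67 to 56.52% of their Wbp7+/- width in a given treatment, and in most of them the remaining peaks of the 2 Wbp7-/- lists lay at the same place. By a grouping made after the values were seen, a first kind had a short central peak inside a wide one. The lowest ratio, -2.13, was at chr5:116180913-116183100. Peaks there measured 2180 bp untreated and 2098 bp with LPS in Wbp7+/- cells, and 387 and 613 bp in Wbp7-/- cells. The untreated Wbp7-/- peak started 943 bp after and ended 850 bp before the Wbp7+/- peak. At chr6:128787658-128790118 the Wbp7+/- widths were 2143 and 2461 bp and the Wbp7-/- widths 668 and 490 bp. Both Wbp7-/- peaks lay well inside, by 561 bp or more at either end.

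Central remnants were also seen on chromosomes 19, 2, 9 and 4. The region chr19:7341636-7344080 held 2445 and 2289 bp of peak in Wbp7+/- cells, untreated and with LPS, and 617 and 591 bp in Wbp7-/- cells. At chr2:181192930-181195104 the widths were 2175 and 2133 bp against 490 and 629 bp. Peaks of 2903 and 2915 bp at chr9:119310173-119313174 stood against 753 and 928 bp. The narrowest of this kind in Wbp7+/- cells was chr4:116549263-116550888, with 1468 and 1618 bp against 529 and 458 bp. In these 4 regions every Wbp7-/- width was below every Wbp7+/- width.

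In a second kind, the peak that remained lay near 1 end of the former stretch. Wbp7+/- peaks at chr14:51682361-51686025 measured 3590 and 3665 bp and Wbp7-/- peaks 932 and 949 bp. The higher-coordinate end lay 2374 bp inside untreated and 2436 bp with LPS, and the lower-coordinate end only 284 and 280 bp. The strand of any gene there is unknown, so the ends are named by coordinate alone. The same shape was found at chr13:23521779-23525545, with 3565 and 3767 bp against 1071 and 1194 bp and a higher end 2279 and 2427 bp inside. Loss from the other side was seen at chr19:16946692-16949704, where 2944 and 3013 bp stood against 1035 and 1011 bp. The lower end lay 1861 and 1853 bp inside there, and the higher end 48 and 149 bp.

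Further regions of the second kind lost most of their width at the lower-coordinate end. At chr10:62891126-62893380, Wbp7+/- peaks of 2202 and 2216 bp stood against 761 and 753 bp, with the lower end 1164 and 1145 bp inside. At chr4:148274190-148276365 the widths were 2084 and 2176 bp against 696 and 783 bp. At chr2:9798534-9801538, where untreated Wbp7+/- cells had 2 peaks, widths of 2934 and 2805 bp stood against 569 bp untreated and 1418 bp with LPS. The untreated Wbp7-/- peak was the shorter of that last pair, while in the other regions of this paragraph the 2 treatments gave nearly the same width.

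The remaining 3 of the 15 differed between their libraries. At chr7:20332751-20336350 the Wbp7+/- peak measured 2298 bp untreated and 3600 bp with LPS, against 787 and 965 bp in Wbp7-/- cells. On the X chromosome, chrX:91785849-91788072 held 2224 and 2154 bp in Wbp7+/- cells but 1257 bp untreated and 316 bp with LPS in Wbp7-/- cells. The region chr11:114711766-114714954 had 2827 and 3189 bp in Wbp7+/- cells and 866 and 867 bp in Wbp7-/- cells. The 2 Wbp7-/- peaks there were of nearly equal length but shared no base, the untreated one lying toward the higher and the LPS one toward the lower end. It was the only 1 of the 295 regions in which the Wbp7-/- peaks of the 2 treatments did not overlap.

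**Figure D3:**
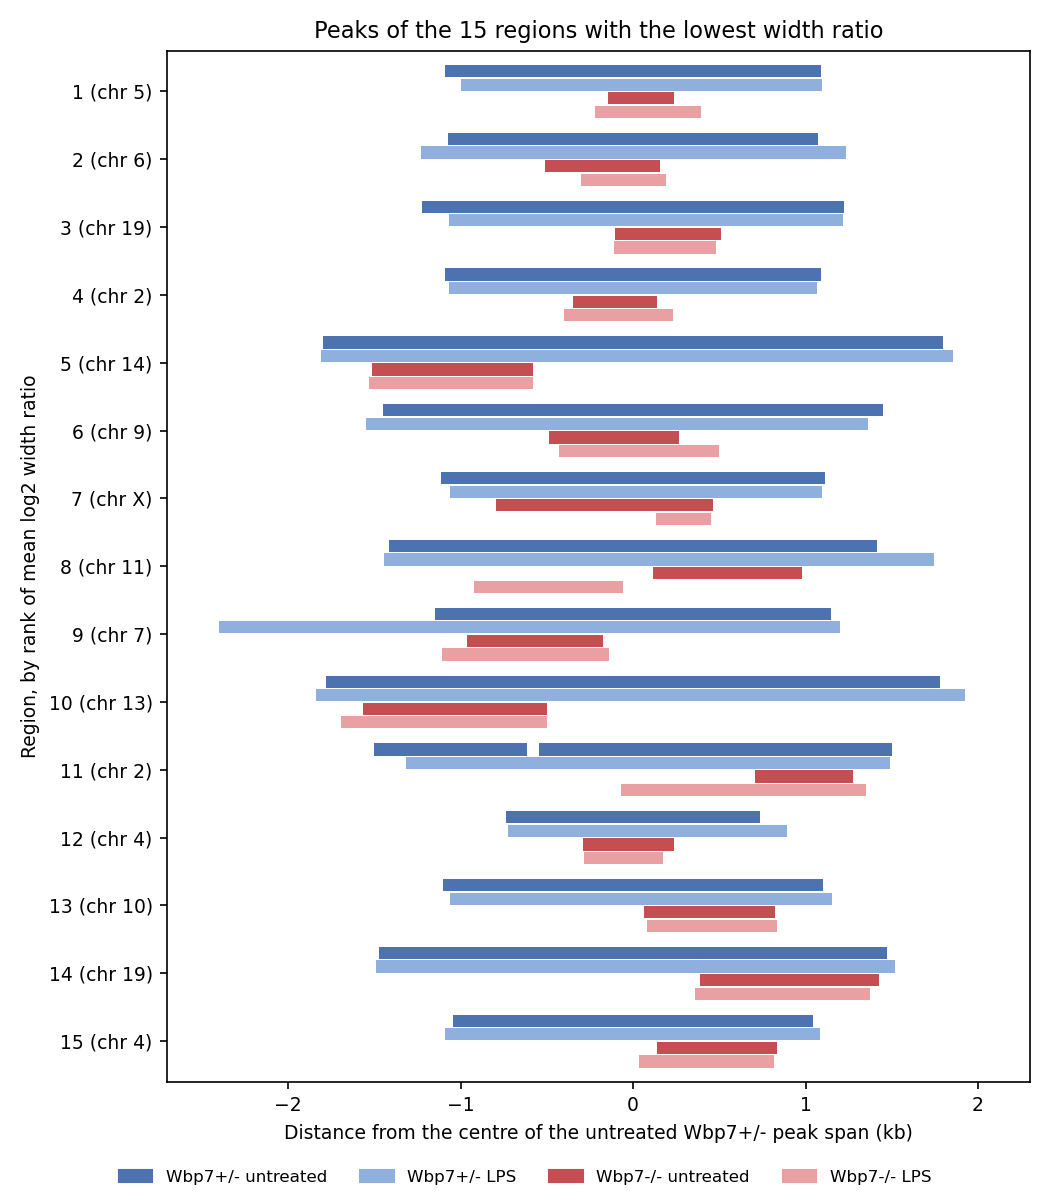
Peaks of the 15 narrower regions with the lowest mean ratio, as bars on a distance axis in kb centred on the untreated Wbp7+/- peak span; from top to bottom in each row are Wbp7+/- untreated, Wbp7+/- LPS, Wbp7-/- untreated and Wbp7-/- LPS. The Wbp7-/- bars lie inside the Wbp7+/- bars, centrally or toward 1 end, and in row 8 the 2 Wbp7-/- bars do not overlap.

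The regions that lost the most bases were wide ones, and 7 of the 10 still reached 3100 in each Wbp7-/- list. The largest mean loss, 3478.5 bp, was at chr2:75533637-75543962, with 10169 and 10208 bp in Wbp7+/- and 6167 and 7253 bp in Wbp7-/- cells. Its lower-coordinate end lay 3990 bp inside untreated and 1640 bp inside with LPS, while the higher end stayed within 28 bp. Its mean ratio of -0.607 became -0.485 with spans in place of summed widths and was -0.493 with LPS alone, both above the cut, so its place among the narrower regions depends on these choices. At chr17:46164159-46170043, widths of 5885 and 5690 bp stood against 2299 and 2498 bp, and the Wbp7-/- scores were 582.71 and 547.1. At chr1:136311124-136317713 the higher end lay 2941 and 3913 bp inside, and 5658 and 6097 bp stood against 2472 and 2509 bp.

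Other large losses were found at chr16:87698163-87705246, with 5044 and 7084 bp in Wbp7+/- against 2916 and 3167 bp in Wbp7-/- cells. At chr3:106346913-106354993 the widths were 6354 and 8081 bp against 4248 and 4336 bp. At chr15:3220067-3226249, peaks of 6151 and 6021 bp stood against 3565 and 3211 bp. In each of these 3 the higher-coordinate end lost the most in both treatments. At chr2:11418392-11425473 the peak measured 3827 bp without and 7082 bp with LPS in Wbp7+/- cells, and 2074 and 3666 bp in Wbp7-/- cells. At chr17:57417810-57425858 the loss was uneven, with 7509 and 7377 bp in Wbp7+/- against 6306 bp untreated and 3597 bp with LPS in Wbp7-/- cells. Its ratio was -0.252 untreated, and its mean ratio was -0.374 with peaks joined within 1 kb, both above the cut. The chromosome 14 and 13 regions described above, with mean losses of 2687 and 2533.5 bp, complete the 10.

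Over all 295 regions the remaining peak lay inside the former one, as the choice of regions makes likely. Both outer ends of the Wbp7-/- peaks were at or inside those of the Wbp7+/- peaks in 266 regions untreated and 251 with LPS. These are 90.17% and 85.08%, against 18.15% and 18.66% of all strong shared regions. With an end counted as moved when it lay 200 bp or more inside, 148 regions had moved at both ends untreated, 138 at 1 end and 9 at neither. With LPS the numbers were 154, 133 and 8. Of all strong shared regions, 2.67% had moved at both ends untreated, 15.74% at 1 end and 81.59% at neither. With LPS those shares were 3.06%, 16.42% and 80.53%. At a distance of 100 bp, those of the 295 moved at 1 end fell to 84 and 72. The split between 1 end and both ends thus depends on that distance. The end that moved more lay a median of 694 bp inside untreated and 697 bp with LPS, and the other end 203 and 213 bp.

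The same end lost more in both treatments in 231 of the 295 regions (78.3%), against 63.4% of all strong shared regions. Counted the same way, the larger inward or smaller outward shift was at the same end in 179 of the 205 wider regions (87.3%). Of 87 narrower regions moved at 1 end in both treatments, 79 moved at the same end (90.8%), against 550 of 634 (86.8%) over all strong shared regions. Losses were spread over both coordinate directions, with 79 lower and 59 higher ends among the regions moved at 1 end untreated, and 74 and 59 with LPS. Within a region, the bases shared by the 2 Wbp7-/- lists made up a median of 81.6% of the bases covered by either, against 91.6% over all strong shared regions. For the 2 Wbp7+/- lists these values were 89.6% and 90.9%. In the wider regions the median was 90.02% for the 2 Wbp7-/- lists and 85.4% for the 2 Wbp7+/- lists. In each set the lower value was thus that of the genotype with the shorter peaks.

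**Figure D4:**
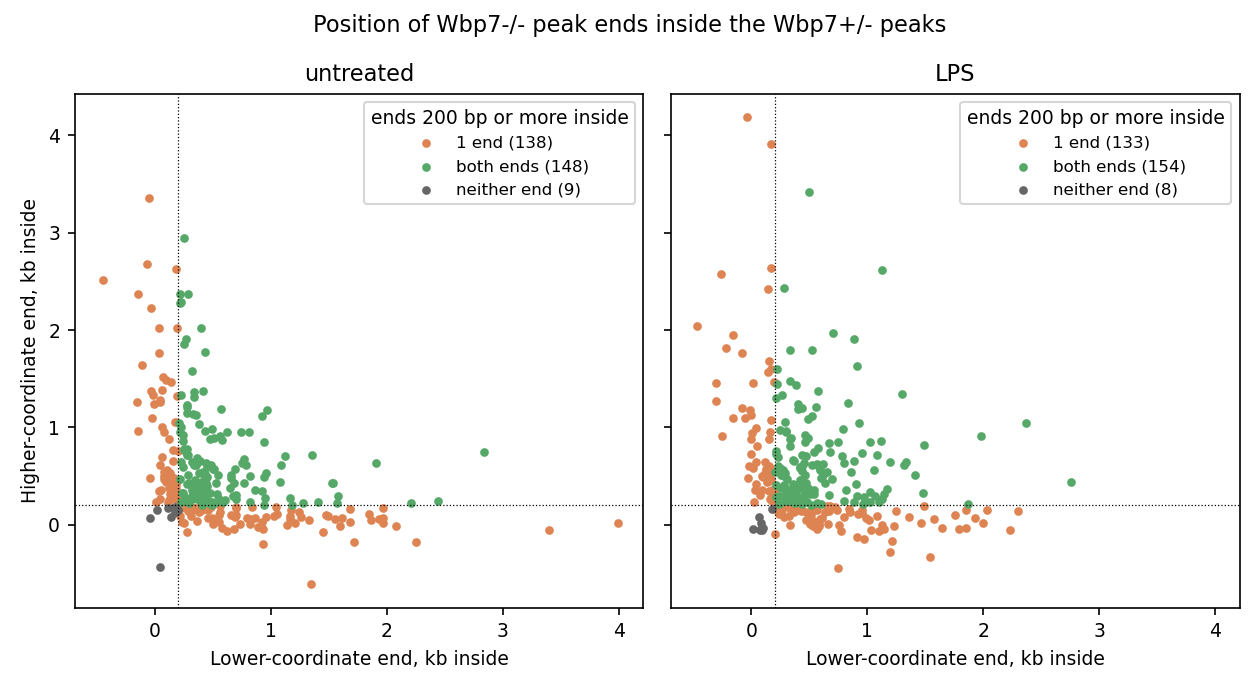
Distance in kb by which the lower-coordinate (horizontal) and higher-coordinate (vertical) outer ends of the Wbp7-/- peaks lie inside those of the Wbp7+/- peaks, for the 295 narrower regions, untreated and with LPS; negative values lie outside, and dotted lines mark 200 bp. Points spread along both axes (1 end moved, 138 and 133 regions) and between them (both ends moved, 148 and 154).

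Most of the regions held a single peak in every list. In 227 of the 295 regions (76.9%, 71.8 to 81.4) each list had 1 peak, against 85% (84.2 to 85.7) of all strong shared regions. Wbp7-/- cells had more peaks than Wbp7+/- cells in 12 regions untreated (4.07%) and 20 with LPS (6.78%), against 2.45% and 4.25% of all strong shared regions. They had fewer in 29 (9.83%) and 18 (6.1%), against 5.95% and 4.21%. With the span from the first start to the last end in place of the summed width, 296 regions passed the same cut, and 287 of them overlapped the 295.

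The peaks that remained also scored low in many of the regions. At the ceiling of 3100 stood 257 of the 295 in untreated and 279 in LPS-treated Wbp7+/- cells, but 62 and 84 in Wbp7-/- cells. For all strong shared regions the 4 numbers were 9492, 9264, 8984 and 8855 of 9850. Both Wbp7-/- scores were below the ceiling in 206 of the 295 (69.8%), against 685 (6.95%) of all strong shared regions, and below 500 in 110, against 142 of 9850. Scores and widths come from the same peaks and the same contrast as the rule, so these counts are a description and not a second line of evidence. Depth was not known, and its part in the low scores was not tested.

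A narrow peak and a low score therefore went together in most, but not all, of the regions. The 206 below the ceiling in both Wbp7-/- lists had median widths of 2015 and 2120 bp in Wbp7+/- and 1127.5 and 1168.5 bp in Wbp7-/- cells. The other 89 started wider, at 3279 and 4148 bp, and kept 2003 and 2781 bp. Requiring the ceiling in each of the 4 lists left 56 narrower and 117 wider regions. That filter removes all 206 of these narrower regions. Of the 205 wider regions, 67 (32.7%) were below the ceiling in both Wbp7+/- lists. The turn from an excess of narrower to one of wider regions thus follows in part from the filter and is a description. Centring each ratio on the median of the strong shared regions gave 341 narrower and 153 wider, a share of 69% narrower against 59% without it. The excess nearly vanished with the LPS ratio alone, at 343 narrower and 325 wider (51.3%). Without the Wbp7+/- LPS list the counts were 233 and 213 (52.2%), and with lists of equal length 284 and 240 (54.2%). Apart from the ceiling filter, the other settings gave 55.3 to 63.9% narrower.

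The 5 regions lowest by the higher of their 2 Wbp7-/- scores had values close to the lowest in the lists, 50 untreated and 50.01 with LPS. At chr4:116549263-116550888, named above for its width, they were 51.91 and 55.83 with Wbp7+/- scores of 2814.25 and 3100. At the chromosome 11 region whose Wbp7-/- peaks did not overlap they were 61.98 and 60.41, at chr2:181192930-181195104 65.04 and 73.67, and at chr14:51682361-51686025 61.01 and 77.51. The fifth, chr15:36093728-36095230, scored 76.71 and 62.62 with peaks of 602 and 632 bp, against 1418 and 1346 bp in Wbp7+/- cells. In 12 regions both Wbp7-/- scores were under 100. Of 9185 regions that reached 3100 in the 2 Wbp7+/- lists, 241 (2.62%) belonged to the narrower regions and 55 (0.599%) had no peak in either Wbp7-/- list. The 82 regions found in both Wbp7+/- lists only and reaching the ceiling there had smaller median widths, of 1772 and 1871 bp, than the narrower regions in the same lists.

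Values at the edges of the rule show how the cut falls. Just inside the ratio cut, at means of -0.5, -0.501 and -0.501, lay chr10:14263535-14265659, chr11:100435508-100439211 and chr4:46317272-46318772. The Wbp7+/- widths of the first were 1372 and 2125 bp and its Wbp7-/- widths 1073 and 1358 bp. The second had 1764 and 3704 bp against 1739 and 1877 bp, so nearly all of its difference came from the LPS lists. The third had 1315 and 1501 bp against 1058 and 931 bp.

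Just outside the ratio cut lay chr2:167756705-167762282, with 4585 and 5545 bp in Wbp7+/- against 3405 and 3737 bp in Wbp7-/- cells. The next were chr4:56876865-56878514, with 1348 and 1650 bp against 939 and 1191 bp, and chr17:36153178-36158433, with 4504 and 4853 bp against 2656 and 4141 bp. The mean ratios of these 3 were -0.499, -0.496 and -0.495. The highest score was exactly 3100 in 281 of the 295, among them chr1:12980452-12983445 (2584 and 2994 bp against 1547 and 1938 bp) and chr1:14297018-14300723 (3674 and 3574 bp against 1719 and 3039 bp). Below the score cut, 262 of the 2444 other shared regions also had a mean ratio of -0.5 or lower. That is a larger share than the 295 of 9850 (2.99%) above the score cut. The highest score among the 262 was 3064.45, at chr8:13199699-13201499, with 1657 and 1801 bp against 591 and 599 bp. The next, chr1:34488714-34492476, reached 3057.9, with 3551 and 3763 bp against 2413 and 2132 bp.

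The width change with LPS within a genotype is computed from the same 4 widths as the ratios that chose the regions, so it is given as a description. Most strong shared regions were slightly narrower after LPS, and fewer of the narrower regions were. In Wbp7+/- cells 111 of the 295 (37.6%, 32.3 to 43.3) had a smaller width with LPS than without, against 60.9% of all strong shared regions. In Wbp7-/- cells the number was 130 (44.1%, 38.5 to 49.8), against 59.5%. The median log2 change was 0.05 in Wbp7+/- and 0.03 in Wbp7-/- cells, against -0.04 and -0.03 over all strong shared regions. These medians are small beside the spread over the regions, whose SD was 0.365 and 0.644. The Wbp7+/- values rest on the library whose LPS time is uncertain.

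Changes of 0.5 or more on the log2 scale with LPS were counted next. Widening by that much was seen in 41 of the 295 (13.9%, 10.4 to 18.3) in Wbp7+/- cells, against 3.82% of all strong shared regions. In Wbp7-/- cells 61 widened as much (20.7%, 16.4 to 25.7), against 3.61%. Both genotypes widened in 28 regions (9.49%, 6.65 to 13.4), against 2.12%. Narrowing by 0.5 or more was seen in 2 regions (0.678%) in Wbp7+/- cells, against 1.63%, and in 19 (6.44%, 4.16 to 9.84) in Wbp7-/- cells, against 1.16%. In Wbp7-/- cells both directions were thus above the background share. Of the 295, 38 (12.9%) reached 3100 in LPS lists only, against 1.68% of all strong shared regions. Without them, in a count added after seeing the data, 26 of 257 (10.1%, 7.0 to 14.4) widened in Wbp7+/- cells, against 3.08% of the 9685 strong shared regions at 3100 or above in an untreated list. In Wbp7-/- cells 41 of 257 (16.0%, 12.0 to 20.9) widened, against 2.85%. The untreated Wbp7-/- peaks of these regions were short, with the median of 1277 bp given above, and the part of that in these counts was not tested. Among the 205 strong shared regions wider in Wbp7-/- cells, 8 (3.9%) widened with LPS in Wbp7+/- cells and 5 (2.44%) in Wbp7-/- cells, and 35 (17.1%) narrowed in Wbp7+/- and 3 (1.46%) in Wbp7-/- cells.

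The regions that widened with LPS differed in score class. Of the 57 regions with 3100 or more in the 2 Wbp7-/- lists, 13 (22.8%, 13.8 to 35.2) widened by 0.5 or more with LPS in Wbp7-/- cells and 7 in Wbp7+/- cells. Of the 27 at the ceiling in the LPS-treated Wbp7-/- list alone, 25 widened in Wbp7-/- and 17 in Wbp7+/- cells, and their median log2 changes were 1.37 and 0.65. That class is defined by scores of the same Wbp7-/- lists, below the ceiling untreated and at it with LPS, so its Wbp7-/- count follows in part from the class. Of the 206 below the ceiling in both Wbp7-/- lists, 23 (11.2%, 7.56 to 16.2) widened in Wbp7-/- and 17 (8.25%, 5.22 to 12.8) in Wbp7+/- cells.

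**Figure D5:**
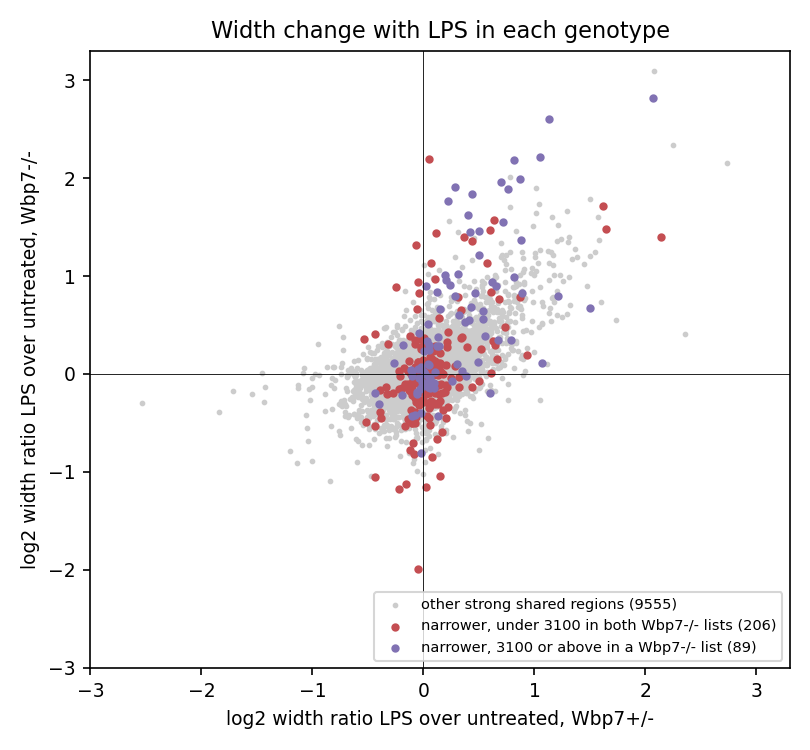
Log2 ratio of summed peak width, LPS over untreated, in Wbp7+/- (horizontal) and Wbp7-/- cells (vertical), 1 point per strong shared region. The narrower regions at the ceiling of 3100 in a Wbp7-/- list (89, purple) reach far into the upper right. Both these and the regions below it in both lists (206, red) spread more along the vertical than the horizontal axis.

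At 4 of the 5 regions with the largest difference between the 2 genotype ratios, the Wbp7-/- peak was short without LPS and near the Wbp7+/- width with it. At chr17:34399873-34402726 the Wbp7+/- widths were 2728 bp untreated and 2829 bp with LPS, and the Wbp7-/- widths 515 and 2350 bp. At chr15:31293955-31298102 the Wbp7+/- widths were 3413 and 4148 bp, and the Wbp7-/- widths 870 and 3277 bp. At chr14:28148585-28151538 they were 2537 and 2954 bp, against 747 and 2541 bp. In these 3 regions the low value was the untreated Wbp7-/- list alone. The scores of those untreated Wbp7-/- peaks were 63.64, 79.07 and 61.99, close to the lowest of that list, 50. With scores under 100 dropped, these 3 regions would have no peak in that list.

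The fourth, chr19:11481275-11485948, was wider with LPS in both genotypes, at 2133 and 4674 bp in Wbp7+/- and 752 and 4574 bp in Wbp7-/- cells. With LPS 97.86% of its Wbp7+/- width was present, against 35.26% untreated. Its mean ratio of -0.768 became -0.47, above the cut, with scores under 100 dropped. The fifth was the X chromosome region described above, where the LPS-treated Wbp7-/- list was the low one. Among all 295, the Wbp7-/- width was 80% or more of the Wbp7+/- width in 11 regions untreated and in 27 with LPS. Whether the genotype ratio differed between treatments was not tested, with 1 library in each group.

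Large widening in both genotypes is shown by 3 regions picked after their values were seen. At chr8:41946565-41952285 the peaks measured 1366 bp without and 5721 bp with LPS in Wbp7+/- cells, and 728 and 5122 bp in Wbp7-/- cells. At chr3:14641031-14645190 the widths were 1355 and 4160 bp in Wbp7+/- and 697 and 2295 bp in Wbp7-/- cells. At chr13:42396081-42401059 they were 1597 and 4979 bp, and 1169 and 3266 bp. In each of these 3 regions the Wbp7-/- width was below the Wbp7+/- width of the same treatment. Their untreated Wbp7-/- peaks scored low, at 66.7, 73.92 and 142.53.

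The narrower regions were spread over all 20 chromosomes in the lists. Their share of the strong shared regions ran from 1.75% on chromosome 15 (7 of 401, 0.848 to 3.56) to 4.64% on chromosome 10 (23 of 496, 3.11 to 6.86). Chromosome 10 was the only 1 of the 20 whose interval did not hold the overall 2.99%, and the X chromosome, with 9 of 297 (3.03%), was at that level. Chromosome 7, which carries Wbp7, held 13 of 719 (1.81%, 1.06 to 3.07).

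Another region of any kind lay within 5 kb of 83 of the 295 (28.1%, 23.3 to 33.5), against 23.2% of all strong shared regions. Within 10 kb the share was 33.9%, against 36.4%, and for neighbours with a peak in all 4 lists within 5 kb it was 14.2%, against 14.1%, so the order depends on the distance and the kind of neighbour. A region found in both Wbp7+/- lists only lay within 5 kb of 18 (6.1%, 3.89 to 9.44), against 1.94% of all strong shared regions and 3.41% (1.66 to 6.88) of the regions wider in Wbp7-/- cells. At these places a narrower region lay beside one without a peak in either Wbp7-/- list. The Wbp7-/- lists also entered the ratios that chose the regions, so these shares are a description. Those lists hold fewer peaks, 14599 untreated and 15086 with LPS, against 17316 and 17313 in Wbp7+/- cells, and depth is unknown. The median distance to a region found in both Wbp7+/- lists only was 220.0 kb, against 203.0 kb over all strong shared regions. Such neighbours thus concern few of the 295.

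Pairs of narrower regions within 100 kb of each other numbered 11. The closest pair, 1.9 kb apart, was chr6:128787658-128790118 (described above) and chr6:128792017-128794492, with 2476 and 2254 bp in Wbp7+/- against 1508 and 1538 bp in Wbp7-/- cells. On chromosome 1, chr1:136452556-136454029 (1474 and 1395 bp against 758 and 535 bp) and chr1:136456339-136458381 (2011 and 2013 bp against 1511 and 1243 bp) were 2.3 kb apart. The chromosome 13 region with a remnant near 1 end had a neighbour at 11 kb, chr13:23536565-23539000, with 2239 and 2334 bp against 1217 and 1308 bp. On chromosome 19, chr19:34643610-34649533 and chr19:34659207-34661566 were 9.7 kb apart. The first measured 4175 bp without and 5924 bp with LPS in Wbp7+/- cells, and 2003 and 5518 bp in Wbp7-/- cells. The second measured 1724 and 2342 bp, and 491 and 1754 bp. Both members of that pair were narrowest in untreated Wbp7-/- cells. The pairs were picked for their distance and stand for 22 of the 295 regions.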

How the data were processed

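H3K4me3 peak lists of 4 libraries, 1 per group, were analysed. Reads were aligned with Bowtie to mm9, per the submitters' processing notes, and MACS made the peak lists, per the file headers, whose names end in input. Versions, thresholds and read numbers are unknown here. The authors deposited a start, an end and a score for each peak, and the score is as deposited; scores of 3100 or above were treated as 1 class. Groups came from the sample titles.

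Peaks were joined with bedtools 2.31.1 (minimum overlap 1 bp), and widths, ends and distances were computed in Python 3.11.15 with pandas 2.3.3, numpy 2.4.6 and scipy 1.17.1. Coordinates are printed counted from 1. The steps were run on simulated lists with known narrowed peaks. These were shifted copies of 1 list with otherwise equal widths, so noise between libraries was not covered. Plots were drawn with matplotlib 3.10.9. No test between groups was run, since each group held 1 library, so background shares over all strong shared regions stand beside the counts.

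The rule for the regions, the alternatives and the comparisons were chosen with earlier results of these data known. Named were the 15 lowest mean ratios, the 10 largest losses in bp, the 5 largest differences between treatments, the 5 lowest Wbp7-/- scores (by the higher of the 2), and 3 and 2 regions on each side of the ratio and score cuts. Neighbouring pairs and 3 regions widened by LPS were added after their values were seen. Alternatives were other joining, score, width, ratio, end and distance settings. Sequences and gene names were left out, since a genome of mm9 was not used here.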

Additional observations from a re-analysis of the deposited data

Results flagged for a closer look

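LPS changed the width in opposite directions in the 2 genotypes in some of the narrower regions. The peak was wider with LPS in Wbp7+/- and narrower in Wbp7-/- cells in 61 regions, and the reverse was seen in 42. Together these are 103 of 295 (34.9%), against 34.8% of all strong shared regions. Changes of 0.5 or more on the log2 scale in opposite directions were seen in 0 of the 295 and in 3 of the 9850. Among the regions named above, opposite changes of at least 0.1 were seen in 3. At chr6:128787658-128790118 the log2 change was 0.20 in Wbp7+/- and -0.45 in Wbp7-/- cells. At chr4:116549263-116550888 it was 0.14 and -0.21, and at chr4:46317272-46318772 it was 0.19 and -0.18. The differences were not tested, with 1 library per group, and groups of 1 allow no check for outlying samples.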

How the results depend on the processing

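Of 24 alternative counts, 16 stayed within 1.5 times the reported count. The number of narrower regions ranged from 265 to 345 under 1 kb joining, dropping scores under 100, spans, centring and either treatment alone. It was 284 with lists of equal length (282 of them overlapping the 295) and 233 (199 overlapping) without the Wbp7+/- LPS list, 2 settings added after seeing the data. It fell to 193 when both ratios had to pass and to 56 with the ceiling required in each list, both of which can only give fewer. Regions narrower after LPS in Wbp7-/- cells numbered 25 among the 89 at the ceiling in a Wbp7-/- list, a part of the 130. Regions 0.5 or more wider after LPS in Wbp7+/- cells numbered 26, against 41, without those at 3100 in LPS lists only, a setting added after seeing the data. With ends counted from 100 bp, 84 regions untreated and 72 with LPS had moved at 1 end. Neighbours within 2 kb were found at 50 regions, and neighbours from all 4 lists within 5 kb at 42, both parts of the 83. For the 36 narrower regions named by rule or for their LPS widening, 187 of 202 alternative ratios stayed at -0.5 or lower. The other 15 lay between -0.5 and 0. The 202 include ratios of a single treatment, and centred ratios, which could only be lower than the uncentred ones. With scores under 100 dropped, regions left without a peak in a Wbp7-/- list gave no ratio and are not among the 202. Several regions with the lowest mean ratios were missing in this way. The share that stayed is thus partly built in. Read depth is unknown, and how it limits peak ends cannot be given. No paired analysis was possible because each group holds 1 library.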
